A study of Mus musculus with 2 samples.

Results

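Rpl10l, Slc25a31, Dpep3, Stk31 and Tex101 are genes of the testis, and their DNA methylation was examined here in liver. The 5 genes were listed by name, as testis genes set apart from those of meiosis and the piRNA pathway. Their CpGs were taken from 2 kb upstream of the annotated 5' end to the gene end, wherever a cytosine had at least 5 reads in both libraries. Such cytosines are called shared CpGs below, and the cytosines of the upper and lower strand of a CpG are counted separately. There were 218 of them in 4 of the 5 genes, among 2654195 in the whole data set, where 22429 of 32101 annotated genes other than pseudogenes held at least 1.

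The data are reduced representation bisulfite sequencing (RRBS) of liver DNA, in which genomic DNA is cut with MspI at CCGG, short fragments are sequenced after bisulfite conversion, and a cytosine that still reads as C is counted as methylated. DNA of 3 WT males of 3 months was pooled into 1 library, and DNA of 3 males of the same age carrying a Uhrf1 knock-in (KI) on both alleles into another. The study describes these mice as 3 pairs of WT and KI littermates. The strain is C57BL/6 in the labels of both samples, and the study's methods print it as C57BL/C. The KI sample is titled KI although its genotype field reads knock out. In the KI allele 2 residues of the tandem Tudor domain of Uhrf1 are replaced by alanine (YP187/188AA), and this domain binds histone H3 methylated at lysine 9. The allele is in all cells of the mouse, and liver DNA comes from hepatocytes together with blood and other liver cells. With 1 library per genotype there is no replicate error. Every test below compares 2 libraries and not mice, and every interval covers counting error only. No interval allows for copies of a molecule made by PCR, whose treatment is not given in the sources used here.

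Uhrf1 recognises CpGs that are methylated on only the old strand after replication and recruits Dnmt1, which methylates the new strand. Methylation of a CpG-rich promoter goes with silencing in somatic tissue, and many genes used only in germ cells carry it in tissues such as liver. Rpl10l is an intronless autosomal copy of the X-linked ribosomal protein gene Rpl10 and serves the large ribosomal subunit in male germ cells. Slc25a31 encodes the ADP/ATP carrier of the inner mitochondrial membrane in male germ cells, a relative of the somatic carriers Slc25a4 and Slc25a5. Stk31 encodes a protein of male germ cells with a Tudor domain and a kinase-like domain. Tex101 is a glycoprotein of the germ cell surface in the Ly6 family, needed in sperm for passage into the oviduct, and Dpep3 is a membrane dipeptidase of the same cells that binds Tex101.

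The sequenced fragments that carry the results are printed 5' to 3' along each gene, from the mm9 (NCBIM37) genome, with every shared cytosine or CpG in capitals. A capital C followed by a lower-case g was measured on the strand shown only. The coding stretch of Rpl10l, on the minus strand at chr12:67384864-67385004, holds its lowest CpG. The stretches just upstream of Slc25a31 and in its coding exon and intron, on the plus strand at chr3:40512596-40512774 and chr3:40512994-40513203, hold the most shared CpGs, and the latter carries a called CpG. The stretch upstream of Stk31, on the plus strand at chr6:49345475-49345602, and those upstream of Tex101 and in its intron, on the minus strand at chr7:25457070-25457261 and chr7:25456383-25456612, show the sites described below.
Rpl10l coding exon: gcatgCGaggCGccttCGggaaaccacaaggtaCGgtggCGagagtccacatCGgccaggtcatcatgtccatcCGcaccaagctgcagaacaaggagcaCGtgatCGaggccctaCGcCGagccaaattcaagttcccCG
Slc25a31 upstream: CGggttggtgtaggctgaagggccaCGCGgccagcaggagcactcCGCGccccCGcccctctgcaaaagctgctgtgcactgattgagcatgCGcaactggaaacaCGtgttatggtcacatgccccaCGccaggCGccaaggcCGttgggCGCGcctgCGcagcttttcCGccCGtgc
Slc25a31 coding exon and intron: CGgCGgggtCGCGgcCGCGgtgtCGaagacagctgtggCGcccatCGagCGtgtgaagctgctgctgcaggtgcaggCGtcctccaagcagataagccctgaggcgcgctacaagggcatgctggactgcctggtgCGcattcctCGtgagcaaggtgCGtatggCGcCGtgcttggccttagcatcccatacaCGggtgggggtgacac
Stk31 upstream: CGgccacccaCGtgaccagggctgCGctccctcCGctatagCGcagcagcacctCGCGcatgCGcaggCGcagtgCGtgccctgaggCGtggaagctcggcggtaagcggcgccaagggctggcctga
Tex101 upstream: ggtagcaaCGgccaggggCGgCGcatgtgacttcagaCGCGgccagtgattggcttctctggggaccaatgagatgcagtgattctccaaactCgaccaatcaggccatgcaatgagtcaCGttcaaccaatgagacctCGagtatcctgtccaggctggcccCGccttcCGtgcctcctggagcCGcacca
Tex101 intron: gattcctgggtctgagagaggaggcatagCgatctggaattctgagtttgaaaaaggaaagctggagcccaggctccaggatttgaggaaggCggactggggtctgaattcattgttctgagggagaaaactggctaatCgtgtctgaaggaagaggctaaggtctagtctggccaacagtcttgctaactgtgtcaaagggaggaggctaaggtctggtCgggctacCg

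Positions are given as distance from the annotated 5' end, which is 0, with upstream positions negative. The upper strand is the one that reads as the gene does, and the lower strand is its complement. A level is the percentage of reads methylated, a mean level gives every shared cytosine the same weight, and a change is KI minus WT in percentage points. A CCGG site is where MspI cut, and the end repair of a cut fragment fills 1 strand with unmethylated cytosines, so 1 of the 2 cytosines at the outer end of a fragment reads near 0% whatever the tissue held. Of the 218 shared CpGs, 36 lay in CCGG sites and 182 outside them, and levels outside CCGG sites are used unless stated.

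All 4 measured genes were highly methylated in WT liver, and 3 of them were called lower in KI liver. The mean level of Rpl10l over 38 CpGs outside CCGG sites was 93.6% in WT and 89.7% in KI. That of Slc25a31 over 78 CpGs was 88.1% in WT but 80.9% in KI. That of Tex101 over 35 CpGs was 85.5% in WT but 79.4% in KI, while that of Stk31 over 31 CpGs was 83.2% in WT and 79.6% in KI. The change was thus -3.89 points for Rpl10l (95% interval -7.11 to -0.68), -7.19 for Slc25a31 (-11.5 to -2.84), -6.05 for Tex101 (-11.9 to -0.23) and -3.56 for Stk31 (-25.8 to 18.6). These intervals treat the CpGs on 1 strand of a fragment as read together. The 4 intervals overlap, so no order among the genes is given by them, and for Stk31 the interval spans 0.

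**Figure D1:**
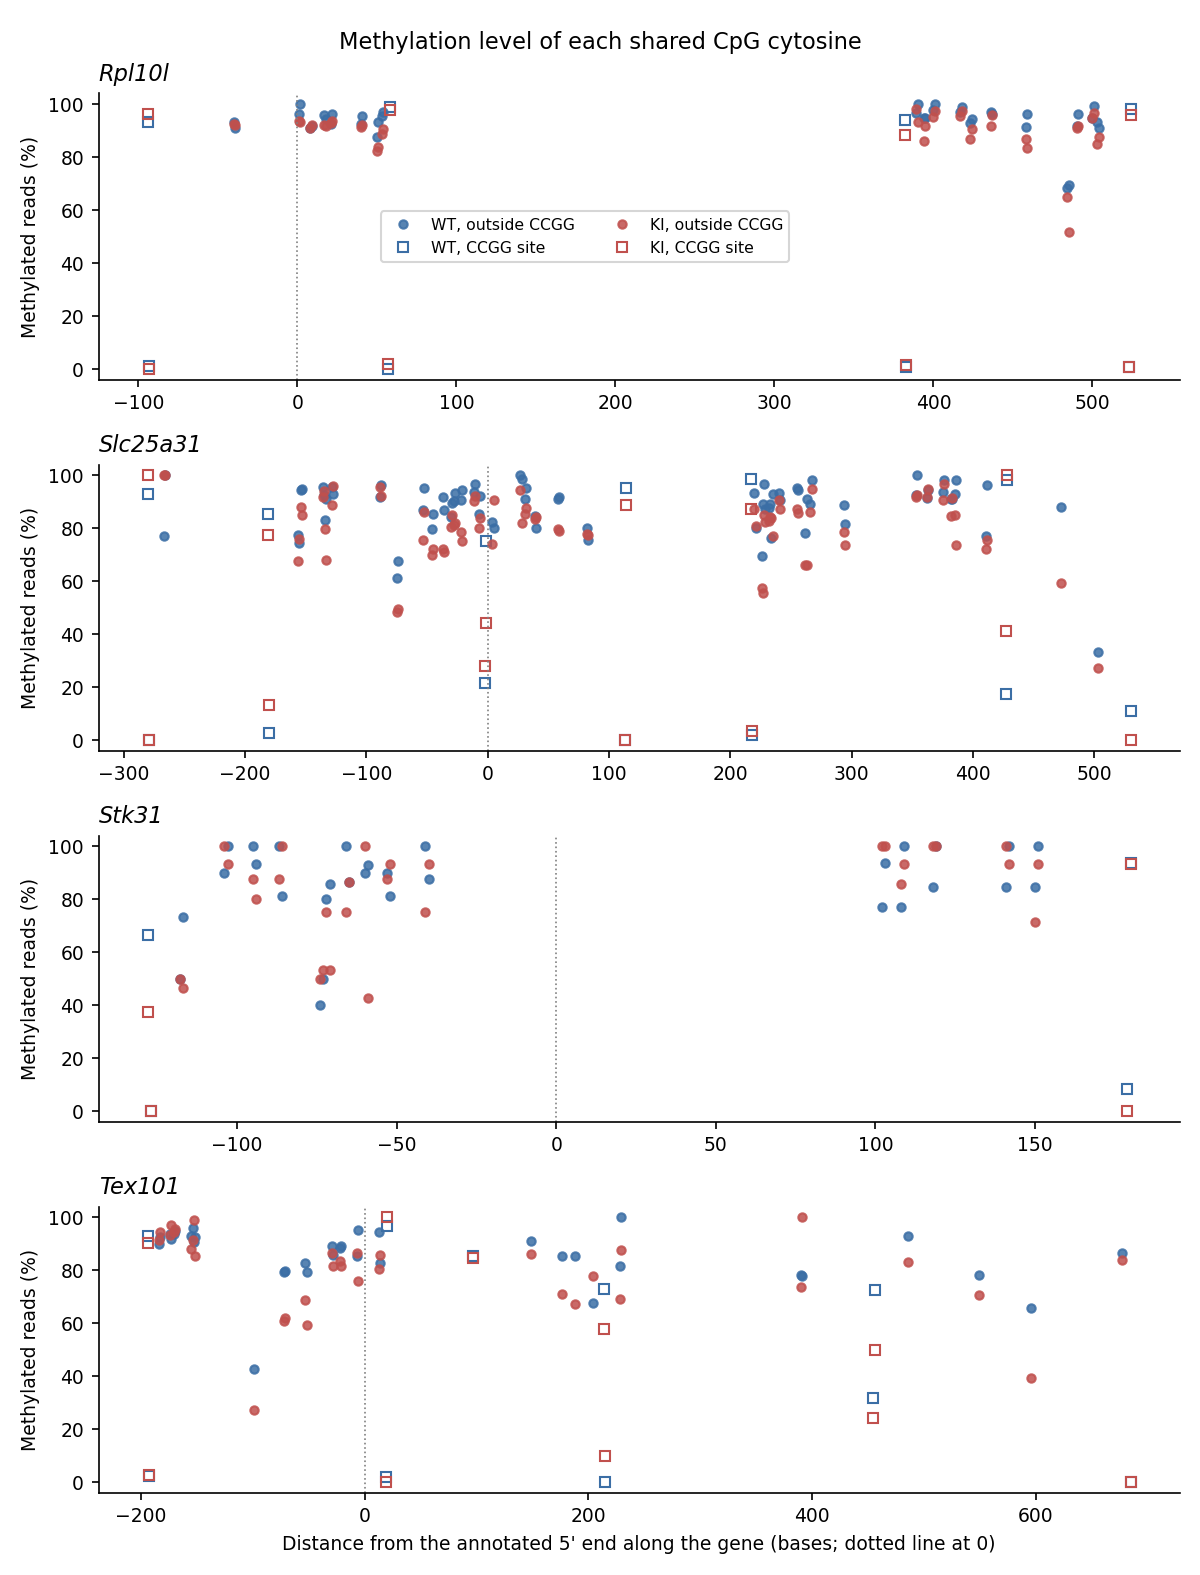
Methylation level of each shared cytosine (vertical axis, % of reads) by distance from the annotated 5' end along the gene (horizontal axis, bases) in WT (blue) and KI (red), with CCGG sites as open squares. Filled points outside CCGG sites lie mostly above 60% on both sides of the 5' end, and the pair of Stk31 CpGs beyond 12 kb is left out.

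Rpl10l, Slc25a31 and Tex101 passed both region tests, 1 by Fisher's exact test on reads summed over the locus and 1 stratified by CpG after Cochran, Mantel and Haenszel. Both were two-sided and adjusted after Benjamini and Hochberg over all gene loci with at least 5 shared CpGs. With all shared CpGs, the adjusted p of Rpl10l was 1.12e-06 by Fisher's exact test and 1.67e-13 by the stratified test. The adjusted p values of Slc25a31 were 8.94e-38 and 1.38e-37, and those of Tex101 2.36e-08 and 2.68e-15. Stk31 passed on summed reads (adjusted p = 0.000384, Fisher's exact test) and not with the CpG as stratum (adjusted p = 0.115), and it was not called. Within 1 kb of its 5' end, over 34 CpGs, summed reads did not pass (adjusted p = 0.522 over all promoters, Fisher's exact test). The rest of the locus was 2 intronic cytosines in repeated bases, at 2.27% in WT and 1.43% in KI. They had 44 WT reads each, and 70 and 71 KI reads. So 3 of 4 measured loci were lower in KI and 0 higher, where 30.0% of 21305 loci were lower and 1.13% higher. Outside CCGG sites the same 3 loci were lower and 0 higher, where 30.5% of 19854 loci were lower and 1.33% higher. Reads that span several CpGs make these p values too small. With the counts of a gene averaged over its CpGs none of the 4 loci passed (adjusted p = 1.0 by Fisher's exact test and by the stratified test), and 2 loci were lower in the whole data set.

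The falls were of the size seen at other loci with high methylation. Among the 3223 loci above 80% in WT outside CCGG sites, the median change was -4.14 points and 54.5% were lower in KI. Over all 19854 loci the median change was -0.80, and the median of the 4 genes was -4.97. For the promoter, taken as the 5' end plus and minus 1 kb, the CpGs of Rpl10l, Slc25a31 and Tex101 were those of the whole locus, and 3 of 4 promoters were again lower in KI and 0 higher, against 7.07% lower and 1.13% higher among 16516 promoters. Outside CCGG sites these figures were 6.93% and 1.18% of 15292 promoters. The typical promoter had little methylation to lose, since its median level was 0.51% in WT outside CCGG sites. Of the 1132 promoters above 80% in WT, 34.5% were lower in KI, with a median change of -3.43 points.

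**Figure D2:**
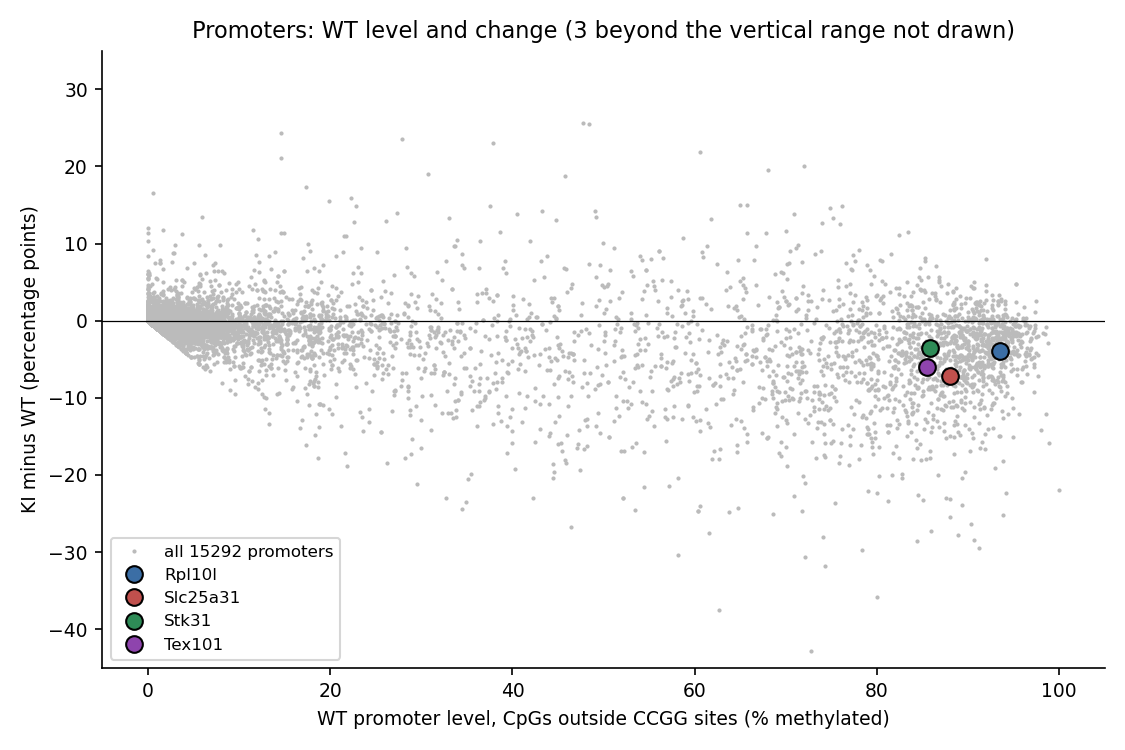
WT level of each promoter outside CCGG sites (horizontal axis, % methylated) and its change, KI minus WT (vertical axis, percentage points), for 15292 promoters in grey and the 4 measured genes as large points. The 4 genes sit between 85.5% and 93.6% in WT and between -7.19 and -3.53 points, inside the cloud of highly methylated promoters, and 3 promoters beyond the range of -45 to 35 points are not drawn.

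Most single CpGs of the genes moved down by a little. Outside CCGG sites the level was lower in KI at 32 of 38 CpGs of Rpl10l, 64 of 78 of Slc25a31, 25 of 35 of Tex101 and 16 of 31 of Stk31. Over the whole data set 44.7% of such CpGs were lower, 22.2% higher and 33.0% equal, with CpGs at 0% in both libraries among the last. CpGs of 1 fragment share reads, so these counts are not independent. Where both strands of a CpG were read, both were lower at 14 of 19 CpGs of Rpl10l, 26 of 38 of Slc25a31, 6 of 13 of Tex101 and 3 of 15 of Stk31. Both were higher at 6 of these 85 CpGs in all.

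Of the 218 CpGs, 3 were called lower and 0 higher by Fisher's exact test at an adjusted p under 0.05 with a difference above 25 points, where 1.09% of all shared CpGs were called lower and 0.0474% higher. Outside CCGG sites 2 of 182 were called lower and 0 higher, against 1.41% and 0.0504%. The share of called CpGs in the genes was near that of all CpGs. At position 227 of Slc25a31, in the coding part of its exon, the lower strand was methylated in 89.1% of 55 WT reads and 55.4% of 56 KI reads (adjusted p = 0.00652, Fisher's exact test). The upper strand of the same CpG, at 226, went from 69.4% of 147 reads to 57.5% of 87 and was not called. At position 596 of Tex101, in its intron, the level was 65.9% of 135 WT reads and 39.5% of 76 KI reads (adjusted p = 0.0143, Fisher's exact test), and only this strand was read. With the strands of each CpG summed, 1 CpG of the genes was called lower.

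**Figure D3:**
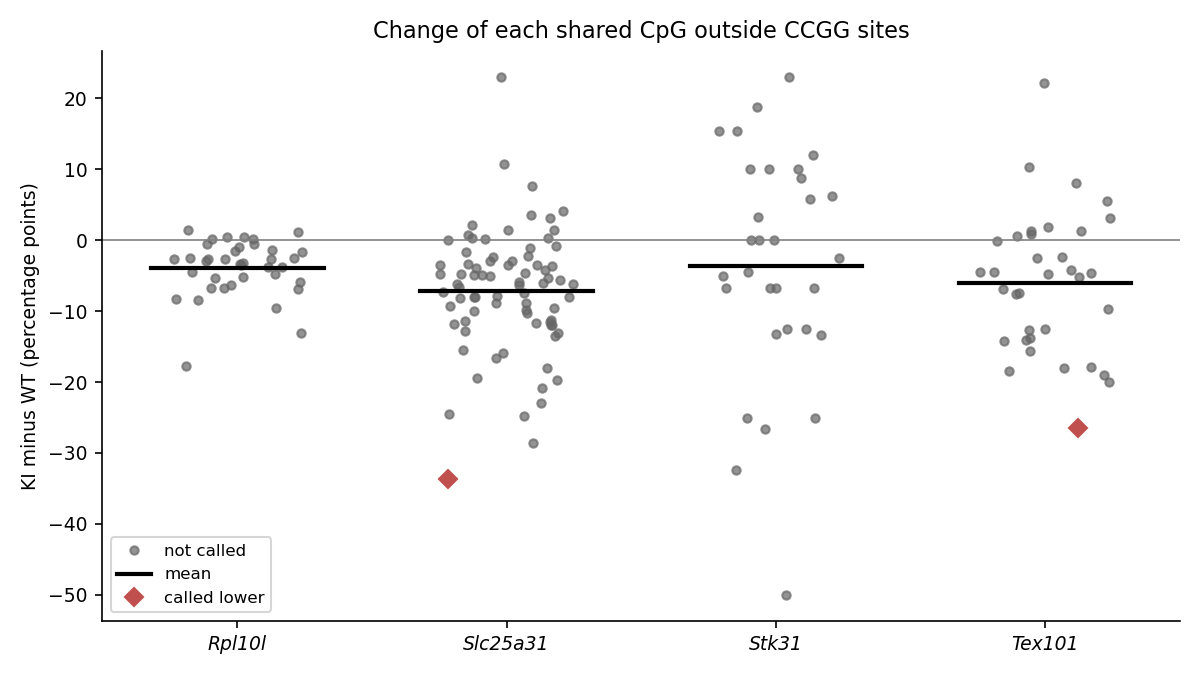
Change of each shared CpG outside CCGG sites, KI minus WT in percentage points, for the 4 genes; points are single cytosines, spread sideways for legibility, diamonds are the 2 called lower, and black lines are the means. Means lie between -7.19 and -3.56, and the points of Stk31, with the fewest reads, spread from -50 to 23.1.

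The third called CpG was a CCGG site at the 5' end of Slc25a31, where 2 sequenced fragments meet. At position -1 the lower strand was at 75.2% of 274 WT reads and 44.2% of 199 KI reads (adjusted p = 7.09e-09, Fisher's exact test). The fragment on its left, which gives the native cytosine, had a median of 212 WT and 100 KI reads on this strand, and the fragment on its right, which gives the filled cytosine, had 61 and 98. The fragments thus contributed in different proportions in the 2 libraries. At position 427 the upper strand of another CCGG site went the other way, from 17.4% of 178 reads to 41.1% of 146, and there the left fragment, with the filled cytosine, had a median of 145.5 WT and 86 KI reads and the right one 33 and 59. The part of this proportion in either level was not tested, and both positions are left out of the values outside CCGG sites.

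Rpl10l (ENSMUSG00000060499.6, minus strand, chr12:67384368-67385388) was measured in a pair of fragments. The fragment across the 5' end, from -92 to 58, covered the end of the upstream region, the 5' UTR and the start of the coding sequence. Its 16 CpGs averaged 94.0% in WT against 90.9% in KI and changed by -3.11 points (95% interval -7.02 to 0.79). The coding fragment from 384 to 524 averaged 93.3% and 88.8% over 22 CpGs, a change of -4.46 points (-9.23 to 0.31), and 20 of the 22 were lower. With the strands of each CpG summed, 40 CpGs reached 5 reads and the change of the locus was -5.63 points, against -3.31 over the 46 cytosines counted singly. These 46 belong to 23 CpGs, so summing also brought in CpGs with few reads, at equal weight. All listed cytosines of the locus held 7923 WT and 7348 KI reads, of which the shared ones held 7830 and 7223. Neither fragment's interval alone excluded 0, whereas the interval of the 2 together did. Levels within the gene were even. The CpG at 484 and 485 stood apart, at 68.3% of 208 and 69.4% of 111 WT reads and 65.0% of 157 and 51.7% of 120 KI reads, while the other 36 CpGs had WT levels from 87.7% to 100%.

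As Rpl10l is a gene copy, the placement of its reads was examined through the 24 bases around each CpG. Only exact matches in the unconverted genome were counted, so a copy with T in place of a C was missed. For 8 of its 23 CpGs these bases occur at 1 other place in mm9, each within the pseudogene Gm14460 (chr2:78352855-78353493). The CpGs of Rpl10l found at 1 place only went from 94.3% to 90.7% (26 cytosines), and those shared with Gm14460 from 91.9% to 87.4% (12 cytosines). Gm14460 was itself at 94.2% in WT and 90.6% in KI over 20 CpGs. The level and the change of Rpl10l were alike in CpGs with and without a copy. CpGs of both kinds lie on the same coding fragment and share its reads, and Gm14460 had nearly the same levels. So this comparison cannot show whether reads were misplaced. None of the CpGs shared their 24 bases with Rpl10 on the X chromosome.

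Slc25a31 (ENSMUSG00000069041.6, plus strand, chr3:40512777-40529515) was measured in 5 fragments between -280 and 529. The upstream fragment from -181 to -3 had the most reads of the gene. Its 30 CpGs averaged 88.1% in WT against 79.8% in KI and changed by -8.31 points (95% interval -14.5 to -2.11), and 26 of them were lower. The level went from 86.7% to 79.2% on its upper strand and from 89.5% to 80.5% on its lower strand. The fragment from -2 to 112, in the 5' UTR, changed by -4.51 points over 12 CpGs (-13.7 to 4.64). The fragment from 217 to 426, which holds the coding part of the exon and the start of the intron, averaged 89.9% and 82.3% over 32 CpGs and changed by -7.67 points (-15.7 to 0.32). The outermost fragment, from -280 to -182, went the other way, from 88.5% to 100% over 2 CpGs with 6 to 14 reads each, a change of 11.5 points (-5.68 to 28.8), with 1 CpG higher and 1 equal. So the KI level was lower on both sides of the 5' end in the better read fragments, and the intervals of the fragments overlap. Further into the intron, the CpG at 473 was at 87.9% of 33 WT reads and 59.3% of 59 KI reads (adjusted p = 0.110, Fisher's exact test), and the CpG at 503 was at 33.3% and 27.1%, the lowest WT level in the gene.

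The largest falls upstream of Slc25a31 outside CCGG sites were at -133, with 91.0% of 211 WT reads and 68.0% of 97 KI reads, at -37, with 91.9% of 172 and 72.2% of 133, and at -21, with 94.4% of 213 and 75% of 100. Their adjusted p values by Fisher's exact test were 0.000202, 0.000955 and 0.000322. All 3 passed the adjusted p and missed the call because the difference was below 25 points. At -37 the opposite strand, at -36, went from 86.9% to 71.0%, and at -21 the other strand, at -22, from 90.6% to 78.6%. At -133 the other strand, at -134, went from 83.0% to 79.5%. The largest rise upstream, at -267, was from 76.9% of 13 reads to 100% of 12 (adjusted p = 1.0, Fisher's exact test).

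Tex101 (ENSMUSG00000062773.5, minus strand, chr7:25453031-25457069) was measured in 4 fragments from -192 to 686. Across the 5' end, from -192 to 20, its 23 CpGs averaged 87.0% in WT against 81.3% in KI and changed by -5.70 points (95% interval -13.2 to 1.81). The difference was uneven along this fragment. The 10 cytosines from -184 to -152 were at 92.8% in WT and 93.0% in KI, with single changes from -6.87 to 8.09 points. The 13 cytosines from -99 to 14 were at 82.6% and 72.3%, and 11 of them were lower, with changes from -20.0 to 3.13 points. The fragment was divided at its longest gap between measured CpGs after the values were seen, so the division has no test. The 3 intron fragments had 4 CpGs each, with changes of -6.76, -1.87 and -11.6 points in order from the 5' end. In the last, from 457 to 686, all 4 CpGs were lower and the mean went from 80.9% to 69.3% (95% interval of the change -23.9 to 0.78).

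Stk31 (ENSMUSG00000023403.8, plus strand, chr6:49345603-49419500) had the fewest reads, from 10 to 16 in WT and from 7 to 15 in KI over the single fragment from -128 to 178. The 30 CpGs of this fragment averaged 85.8% and 82.3%, a change of -3.53 points (95% interval -26.5 to 19.4). Upstream of the 5' end 20 CpGs went from 83.6% to 76.5%, and in the intron 10 CpGs of the same fragment went from 90.1% to 93.7%. At this depth neither difference was detectable. The largest single difference, at -59, was 92.9% of 14 WT reads against 42.9% of 14 KI reads and did not pass (adjusted p = 0.217, Fisher's exact test), while the other strand, at -60, was at 90% of 10 and 100% of 7 reads. Another intronic CpG, at 12315, was at 4.55% of 44 WT reads and 0.0% of 71 KI reads, and the 24 bases around it occur 289 times in mm9. It has more reads than any CpG of the fragment, and with levels weighted by reads the change of the locus was -11.5 points, against -4.04 with equal weights.

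Dpep3 (ENSMUSG00000031898.8, minus strand, chr8:108497420-108503319) held no shared CpG. Its 84 listed cytosines had at most 8 reads in WT and 3 in KI. Summed over those outside CCGG sites, 83 of 92 WT reads were methylated, a level of 90.2% (95% Wilson interval 82.4 to 94.8), and 45 of 55 KI reads, a level of 81.8% (69.7 to 89.8). The intervals overlap, and different cytosines make up the 2 sums. In the first 1 kb of the gene, 28 of 28 WT reads were methylated, a level of 100% (87.9 to 100), at 8 covered cytosines. In KI they were 16 of 21 reads, a level of 76.2% (54.9 to 89.4), at 21 covered cytosines. These intervals overlap too. No difference was tested at this depth, and Dpep3 enters no test.

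**Figure D4:**
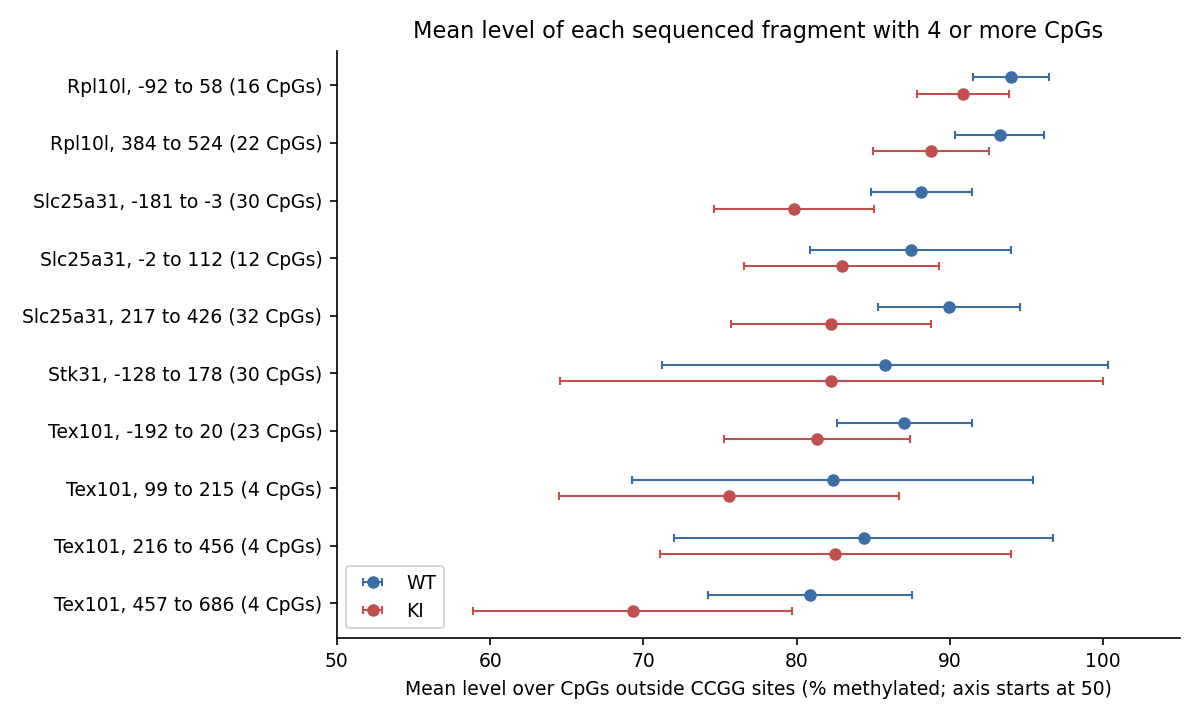
Mean level over CpGs outside CCGG sites (% methylated, axis from 50) in the 10 sequenced fragments with at least 4 CpGs, labelled by gene, position and number of CpGs; bars are 95% intervals of counting error with the CpGs on 1 strand of a fragment taken as read together. The KI mean is below the WT mean in all 10 fragments, with the widest bars in Stk31.

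Some CpGs of the genes lay well below their neighbours, 1 in Rpl10l and more in the other genes, and part of them shared the same letters. The motif CACGTG, which is bound by bHLH factors and was searched on both strands from 250 bases before to 50 after the 5' end, occurs there in Slc25a31, starting at -77, and in Stk31, starting at -120, and in 6.75% of 32099 promoters. A further CACGTG lies around 484 in the coding exon of Rpl10l. In Slc25a31 its CpG was at 61.3% of 173 and 67.4% of 178 WT reads, and in KI at 48.5% of 132 and 49.4% of 87. The other 42 CpGs within 200 bp averaged 89.1% in WT and 83.1% in KI. In Stk31 the CpG in CACGTG was at 50% of 10 and 73.3% of 15 WT reads and at 50% of 8 and 46.7% of 15 KI reads, against 86.0% and 79.6% for 18 others. In Rpl10l it was the lowest CpG of the gene, in Slc25a31 it was lower than all but the CpG at 503, and in Stk31 the CpG at -74 and -73, at 40.0% and 50% in WT, was lower still, as was the intronic CpG in repeated bases at 12315.

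Tex101 has no CACGTG there, but both of its lowest upstream pairs lay in related letters. The CpG at -72 and -71, within CACGTT, was at 79.3% of 111 and 79.8% of 119 WT reads and at 60.9% of 92 and 62.0% of 71 KI reads. The CpG at -53 and -52, within CTCGAG, was at 82.7% and 79.2% in WT and at 68.9% and 59.2% in KI. Other cytosines of Tex101 outside these letters were lower in WT than both pairs. They were those at -99 (CTCGAC), at 42.7% of 110 WT reads and 27.2% of 92 KI reads, at 596 (ATCGTG), the called CpG, at 204 (AGCGCT), at 67.6% of 34 and 78.0% of 59, and at 549 (GGCGGA), at 78.3% of 138 and 70.7% of 75, each read on 1 strand only. The pair at 390 and 391, within TCCGAG, was also lower, at 78.1% of 228 and 77.8% of 9 WT reads and at 73.5% of 155 and 100% of 8 KI reads. The letters CCAAT, bound by NF-Y, occur 4 times in this promoter, starting at -144 (lower strand), -127, -96 and -65, and in 38.6% of promoters. TCCCGC, bound by E2F factors, starts at -43 in Rpl10l and at 36 in Slc25a31 and is in 19.6% of promoters, and TGACGTCA, bound by CREB and CREM, is in none of the 5 and in 1.84% of promoters.

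The same letters were low across the data set. CpGs read at least 20 times in each library and with at least 5 others within 100 bp that averaged above 80% in WT were grouped by the 6 bases centred on them. There were 289283 such cytosines, and 96 groups held at least 1000. CTCGAG was furthest below its neighbours, at -11.4 points over 3650 cytosines, followed by AACGTG at -11.3, CACGTT at -10.8 and CACGTG at -10.02. CpGs in these letters went from 78.5% to 69.9%, from 79.7% to 66.8%, from 79.8% to 66.9% and from 80.4% to 73.5% between WT and KI, where all 289283 went from 89.2% to 84.0%. The 10 cytosines of the 4 genes in these letters averaged 71.1% in WT against 56.2% in KI and changed by -14.9 points. The 117 others whose letters could be grouped averaged 89.4% and 85.2%, a change of -4.21 points. The groups next in order were CACGAG, at -7.51 points, and CTCGTG, at -7.03. They went from 83.1% to 73.8% and from 83.6% to 73.9% across the data set. The CpG of Slc25a31 in these letters, at 363 and 362, was high and hardly changed. It was at 94.5% and 91.5% in WT and at 94.7% and 91.9% in KI. Low cytosines also lay in other letters. The letters around 390, 204 and 549 of Tex101 were above their neighbours in the data set, by 1.95, 2.40 and 3.19 points, and those around -99 and 596 were in too few cytosines to be grouped. This grouping was made after the values were seen, repeated sequences are included, and no test was made.

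**Figure D5:**
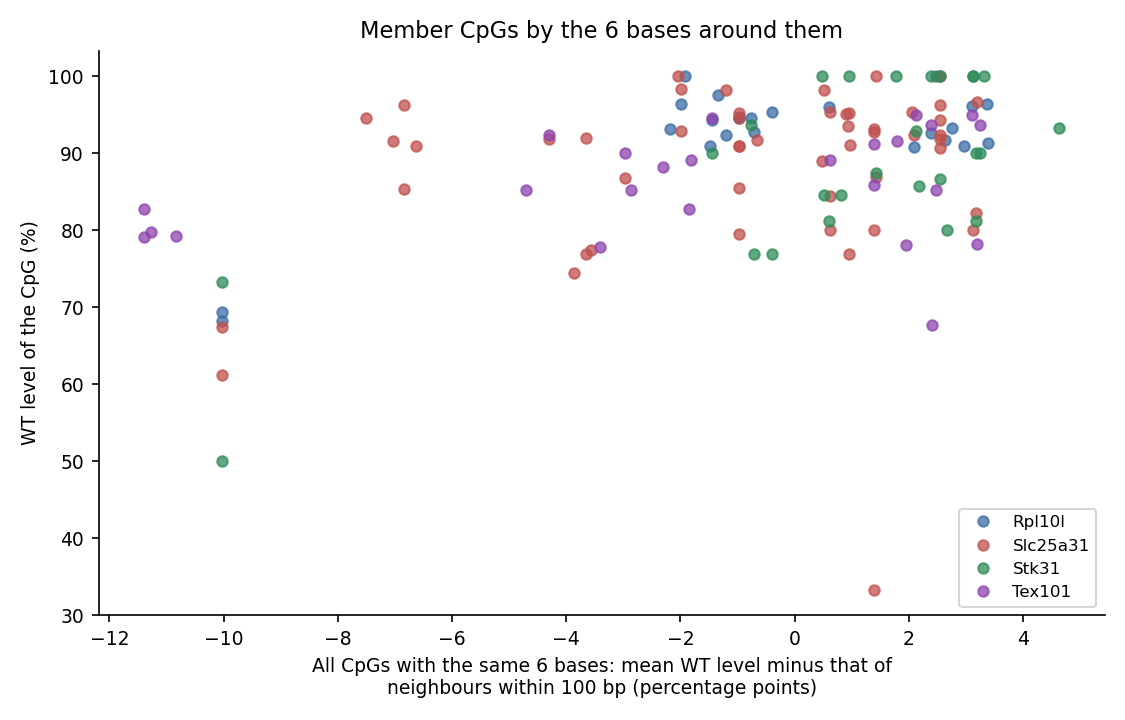
WT level of 126 CpG cytosines of the 4 genes (vertical axis, %, from 30) against how far all cytosines in the same 6 bases lie from their neighbours in WT (horizontal axis, percentage points). The 10 cytosines furthest to the left, in the 4 kinds of letters furthest below their neighbours, have WT levels from 50% to 82.7%.

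The 5' ends of the genes are rich in CpGs. From 250 bases before to 50 after the 5' end there are 13 CpGs in Rpl10l, 21 in Slc25a31, 12 in Dpep3, 28 in Stk31 and 19 in Tex101, and the median over 32099 promoters is 7. The ratio of observed to expected CpGs is 0.46 in Dpep3 and from 0.64 to 0.78 in the other 4, and its median is 0.38. So all 5 lie above the median promoter in CpGs while the 4 measured ones are methylated.

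Relatives and partners of the genes served for comparison. The promoter of Rpl10, the X-linked parent of Rpl10l, was at 0.0% in both libraries over 5 CpGs with 30 reads in all in each library. Slc25a5, the X-linked carrier of somatic cells, was at 0.0% in WT and 0.23% in KI over 48 CpGs, and Slc25a4, the carrier of heart and muscle, at 0.81% and 0.81% over 45. These somatic relatives were unmethylated where the germ cell copies were above 80%. Dpep1 and Dpep2, dipeptidases of the same family as Dpep3, were at 67.8% and 83.8% in WT and at 66.8% and 86.9% in KI, so Dpep2 lay near the lowest of the 4 measured genes in WT. Ly6k, a partner of Tex101, went from 64.5% to 66.4%, and Lypd4, a sperm protein of the same family, from 64.7% to 58.4% over 8 CpGs. None of the 7 promoters was called, where 6.93% of all 15292 promoters were lower and 1.18% higher.

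Among 31 other testis genes, 16 promoters were measured outside CCGG sites, of which 6 were lower in KI and 0 higher, where 6.93% of all promoters were lower. Their median WT level was 41.8% and their median change -2.01 points, where the median change over all promoters was -0.00714. The 6 were Pdha2, Spaca1, Rbmxl2, Tssk6, Tssk1 and Ropn1. With CCGG sites included, 7 of 20 were lower, Catsper1 among them, with a median WT level of 54.4% and a median change of -1.66 points. The 4 with the most reads ranged widely in level. Tssk1, a kinase of spermatids, was at 92.3% in WT and 88.6% in KI, and its relative Tssk6 was at 8.82% and 7.55%. Tcp11, a sperm protein, was at 5.71% and 6.04%, and Catsper2, a subunit of the sperm calcium channel, at 0.036% and 0.040%. Over all 16 the WT level ran from 0.036% to 96.5%, so from unmethylated to above Rpl10l, the highest of the measured members. Pdha2, an intronless autosomal copy of an X-linked gene like Rpl10l, was at 89.8% and 81.8% over 16 CpGs. The promoters with the levels nearest to those of the 4 genes, among 14944 with at least 10 CpGs, were Mir136 for Rpl10l (85.5% and 82.5%), AL844840.2 for Slc25a31 (82.3% and 75.9%), AC150744.1 for Stk31 (80.5% and 76.6%) and Gm10355 for Tex101 (76.5% and 70.8%), all with CCGG sites included, and from 9 to 12 promoters lay within 1 point of each gene.

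For the whole data set, the WT file listed 7231934 cytosines and the KI file 6452685, and the shared CpGs had 37 reads at the median in both. Over shared CpGs the mean level was 45.6% for WT and 42.6% for KI. As a check of the labelled tissue, the median WT level outside CCGG sites was 42.1% over 6 measured promoters of hepatocyte genes and 79.3% over 2 of blood cell genes, and Tat, an enzyme of hepatocytes, was at 3.70%. Genes of both lists were also lower in KI. Over whole loci outside CCGG sites 5 of 8 hepatocyte genes were lower, with a median change of -9.65 points. So were 3 of 4 blood cell genes, with a median change of -13.4, where 30.5% of all 19854 loci were lower. The median change of Rpl10l, Slc25a31, Stk31 and Tex101 together was -4.97. The share of blood and other cells in each pool was not measured, and its part in these changes was not tested.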

How the data were processed

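RRBS was made from liver DNA pooled from 3 mice per genotype, 1 library each. Per the labels and the study's methods, the authors mapped reads to mm9 with Bismark (0.12.20 in the submitters' processing notes) and kept uniquely mapped reads. How reads were trimmed and duplicates treated is not given in the sources used here. The values deposited for each cytosine are its coverage, as a count of reads, and the percent of them that were methylated. Methylated reads were recovered as coverage times percent, which was whole for 100% of cytosines. Strand and CCGG sites were read from NCBIM37, and genes from its GENCODE annotation, without pseudogenes. Cytosines under 5 reads in either library were left out. All features were tested together in Python 3.11.15 (scipy 1.17.1), with procedures tested on simulated data. The simulated reads were drawn separately at each CpG, so the simulation does not cover reads that span several CpGs. A region was called where both of its tests passed at an adjusted p under 0.05 and the differences in mean level, in summed reads and in the stratified test had the same sign, whichever way its single CpGs went. Shared CpGs had 37 reads at the median. The members, gene lists and tests were chosen with earlier results of these data known, and the use of 6-base groups, the intervals by fragment and the split of the Tex101 fragment came after seeing the values. The genes named beside the members are all measured relatives and partners, the 4 other testis genes with the most promoter reads, and the promoter nearest to each member in WT and KI level; the called testis genes and Tat were named after their values were seen. Alternatives were coverage minimums of 10 and 20, no CCGG sites, summed strands, weighting by reads, reads thinned to equal numbers, averaged counts, promoters of 500 bp on each side and a chi-square test. No paired analysis of littermates was possible because their DNA was pooled into 1 library per genotype.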

Additional observations from a re-analysis of the deposited data

How the results depend on the processing

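The change of each of the 4 loci and promoters was computed under the alternatives, which gave 70 values, all below 0. These are not 70 separate checks. For Rpl10l, Slc25a31 and Tex101 the locus and the promoter hold the same CpGs, so most of their values are repeated. Of the 70 values, 61 also stayed on the same side of the threshold. With counts averaged over CpGs the change keeps its value by construction, also for Stk31, and the test loses reads. The other 9 values were of this kind: Rpl10l (-3.31 points for locus and promoter, -3.89 without CCGG sites), Slc25a31 (-6.34 and -7.19) and Tex101 (-5.52 and -6.05) no longer passed, with an adjusted p of 1.0 by Fisher's exact test and by the stratified test. The settings without CCGG sites combined with averaged counts or summed strands were chosen after seeing the data. Over the alternatives the locus change ran from -6.03 to -3.11 for Rpl10l, from -7.81 to -6.34 for Slc25a31, from -7.29 to -5.52 for Tex101 and from -11.5 to -3.56 for Stk31. The value of -6.03 for Rpl10l came from summed strands without CCGG sites, which brought in CpGs with few reads. The value of -11.5 for Stk31, against -4.04 with equal weights, came from weighting by reads, since the repeated CpGs at low level have the most reads. Stk31 had too few CpGs for a value at 20 reads. The CpGs called lower fell from 3 to 1 with strands summed. They fell to 2 without CCGG sites, where the call at the 5' end of Slc25a31 was left out. They stayed at 3 with 20 reads or a chi-square test. With 1 library per genotype no alternative leaves out a replicate.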
